A study of Mus musculus with 2 samples.

Results

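The expression of 10 genes of mucous and salivary secretion, of 31053 genes counted, was followed through every cell class of mouse periodontal tissue. The genes are Tff2, Muc5b, Bpifb2, Agr2, Gp2, Pigr, Smgc, Wfdc12, Sbpl and Dcpp2. They were chosen from earlier results on these same cells because they marked a small secretory group, so their high level in that group is given as a description and was not tested. Cells of the gingiva and the scraped surface of the alveolar bone were taken from wild-type C57BL/6 mice aged 8 weeks, and each of 2 libraries pools 5 mice. The LIP library was made 7 days after a silk ligature was tied around a maxillary molar to cause periodontitis, and the control library is from mice without a ligature. With 1 library per condition, and no way to tell the 5 mice of a library apart, no difference between the conditions could be tested, and every interval below covers counting error only.

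Salivary glands secrete through acini, in which mucous cells release gel-forming mucins and serous or demilune cells release watery, enzyme-rich or antimicrobial fluid, and the saliva leaves through ducts. Mucins are folded in the endoplasmic reticulum, heavily O-glycosylated in the Golgi apparatus and packed into granules. Minor salivary glands lie in the oral mucosa, while the labels of these samples name periodontal tissue and no gland. Droplet sequencing counts unique molecular identifiers (UMIs), each standing for 1 captured transcript read at its 3′ end, so that levels of different genes are compared as UMIs per 1000000 UMIs (counts per 1000000, CPM) without division by transcript length.

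The control library held 1169 barcodes and the LIP library 1212, with 16472915 and 14236327 UMIs. Filters of 200 to 7500 genes, at most 60000 UMIs and at most 10% mitochondrial UMIs kept 883 control cells and 936 LIP cells, at medians of 10845 and 5595 UMIs. Of all barcodes, 2 sequences occurred in both libraries.

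Clustering without the 10 genes gave a group of 16 control cells and 11 LIP cells, 1.81% (95% Clopper-Pearson interval 1.04% to 2.93%) and 1.18% (0.588% to 2.09%) of the cells kept. Its leading genes, beside the 10 followed here, included Lman1l, Aqp5, Cldn10, Oit1, Lrrc26, Nupr1, Cldn2, Chst4 and Wfdc2. Of 29 markers of gland secretory epithelium with a row in the files, 15 were more than 2-fold higher than in the remaining cells and present in 25% or more of the group, among them Aqp5, the acinar water channel. The group is therefore called gland-secretory-like, and the secretory group below. The intervals of both shares overlap, and with 1 library each the condition and the dissection of that library cannot be told apart. The cells of the group were among the deepest in the data. They held 24201 to 57581 UMIs in the control library (median 36562) and 15166 to 51859 in the LIP library (median 31441).

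The genes lie on 6 chromosomes of the GRCm38 (mm10) build, and all 10 are annotated as protein-coding by GENCODE M21. Pigr is at chr1:130826684-130852249, Bpifb2 at chr2:153875045-153895270, Wfdc12 at chr2:164189231-164190608, Gp2 at chr7:119442537-119459285, Muc5b at chr7:141839070-141873084, Agr2 at chr12:35992907-36004087, Smgc at chr15:91838265-91861438, Dcpp2 at chr17:23880880-23900788, Sbpl at chr17:23953084-23955274 and Tff2 at chr17:31141049-31144282. Wfdc12, Gp2, Sbpl and Tff2 are on the minus strand and the others on the plus strand. Smgc overlaps the mucin gene Muc19, with which it shares 95 exonic bases. Muc19 has no row in the count files, so transcripts of that gene were not analysed here. Sbpl and Dcpp2 belong to a run of related genes on chromosome 17. The annotated Dcpp2 gene overlaps Dcpp1, with 30 exonic bases in common, and the RefSeq start of Dcpp2 used for the sequence shown lies inside that annotated gene. The transcripts of Dcpp1 and Dcpp3, the least alike of the 3 copies, had 576 identical bases of 613 aligned, and the 3 pairs had 97.0% to 99.4% identity over the last 200 bases, where 3′ reads fall. Reads of these 3 copies can therefore be split between them, and the level of Dcpp2 alone is uncertain. The transcript of Sbpl was 86.0% identical to that of its neighbour Sbp, with 96.1% over the last 200 bases. In the secretory group Sbp had 3 UMIs in the control library and 0 in the LIP library, against 7177 and 1585 of Sbpl.

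Start regions are shown for the 4 members in which TATAA, the core of a TATA box, was found near the start site, and for Dcpp1 and Dcpp3, the near copies of Dcpp2. Bpifb2, Agr2, Pigr and Wfdc12, also high in the secretory group, did not hold it there and are not shown. Each runs from 150 bases before to 50 bases after the RefSeq start site on the GRCm38.p6 build, and capitals mark TATAA where it begins 40 to 20 bases before the start site on the strand of the gene.
Gp2, chr7:119459223-119459422, minus strand: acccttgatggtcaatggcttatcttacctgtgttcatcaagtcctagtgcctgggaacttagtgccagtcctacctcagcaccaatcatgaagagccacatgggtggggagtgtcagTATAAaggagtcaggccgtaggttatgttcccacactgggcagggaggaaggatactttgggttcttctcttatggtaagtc
Smgc, chr15:91838178-91838377, plus strand: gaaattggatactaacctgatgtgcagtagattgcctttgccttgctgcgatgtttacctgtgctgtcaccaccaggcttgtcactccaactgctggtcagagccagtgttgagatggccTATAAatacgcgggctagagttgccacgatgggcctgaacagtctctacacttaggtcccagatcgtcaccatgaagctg
Sbpl, chr17:23955224-23955423, minus strand: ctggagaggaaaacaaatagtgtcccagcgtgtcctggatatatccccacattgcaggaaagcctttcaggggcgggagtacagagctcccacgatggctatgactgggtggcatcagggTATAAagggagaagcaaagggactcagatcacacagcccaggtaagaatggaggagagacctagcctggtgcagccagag
Dcpp1, chr17:23880726-23880925, plus strand: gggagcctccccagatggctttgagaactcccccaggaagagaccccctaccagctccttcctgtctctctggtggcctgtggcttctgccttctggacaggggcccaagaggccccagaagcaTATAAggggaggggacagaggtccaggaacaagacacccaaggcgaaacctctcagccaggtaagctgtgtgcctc
Dcpp2, chr17:23898572-23898771, plus strand: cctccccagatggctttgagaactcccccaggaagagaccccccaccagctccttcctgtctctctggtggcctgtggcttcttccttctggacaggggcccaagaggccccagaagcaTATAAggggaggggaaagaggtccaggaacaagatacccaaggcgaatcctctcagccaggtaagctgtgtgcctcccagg
Dcpp3, chr17:23917308-23917507, plus strand: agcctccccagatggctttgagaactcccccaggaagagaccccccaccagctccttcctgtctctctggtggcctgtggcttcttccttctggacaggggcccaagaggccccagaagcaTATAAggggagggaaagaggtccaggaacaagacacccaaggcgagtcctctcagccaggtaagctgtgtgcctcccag

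The motif began 32 bases before the start site in Gp2, 30 in Smgc, 30 in Sbpl and 31 in Dcpp2. It was found at this place in 4 of the 8 members with a start region in the RefSeq table, and in 3.52% of all 32851 start regions. Over the whole 300 bases and on either strand, the letters TATAA were found in the same 4 members and in 24.9% of all start regions. TGTTTAC, letters bound by forkhead factors such as Foxa1, was found in 1 of the 8 (Smgc) and in 3.65% of all, and ACGTG, a core bound by Xbp1 among others, in 2 of the 8 (Bpifb2 and Pigr) and in 19.6% of all, both on either strand. In Smgc, the single sequence shown with both, TGTTTAC and TATAA do not overlap. A match describes letters and not a bound site. The start regions of Dcpp1, Dcpp2 and Dcpp3 were 96.6% to 97.3% identical in pairs.

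The gel-forming mucin Muc5b and the trefoil peptide Tff2, a secreted partner of mucins in mucus, had the most UMIs. Muc5b had 68718 UMIs in the 16 control cells, 108622 CPM (95% Poisson interval 107812 to 109437), and 33810 in the 11 LIP cells, 99571 CPM (98513 to 100639). Tff2 had 62433 UMIs, 98688 CPM (97915 to 99465), and 34813 UMIs, 102525 CPM (101451 to 103608). All 10 genes together made 27.5% of the UMIs of a control cell of the group on average and 27.1% of those of a LIP cell. Between LIP cells the sum ran from 228031 to 313063 CPM, and it ran from 118061 to 363855 CPM in control cells.

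The plot of levels by class shows how the members were spread. Of all UMIs of the 10 genes in kept cells, 98.6% of those in the control library (98.5% to 98.6%) and 98.2% of those in the LIP library (98.1% to 98.2%) lay in the secretory group. For 9 of the members taken singly the percentage was between 97.4% and 99.3% in either library. The exception was Dcpp2, with 2.50% in the control library and 2.11% in the LIP library, which is described further on.

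**Figure D1:**
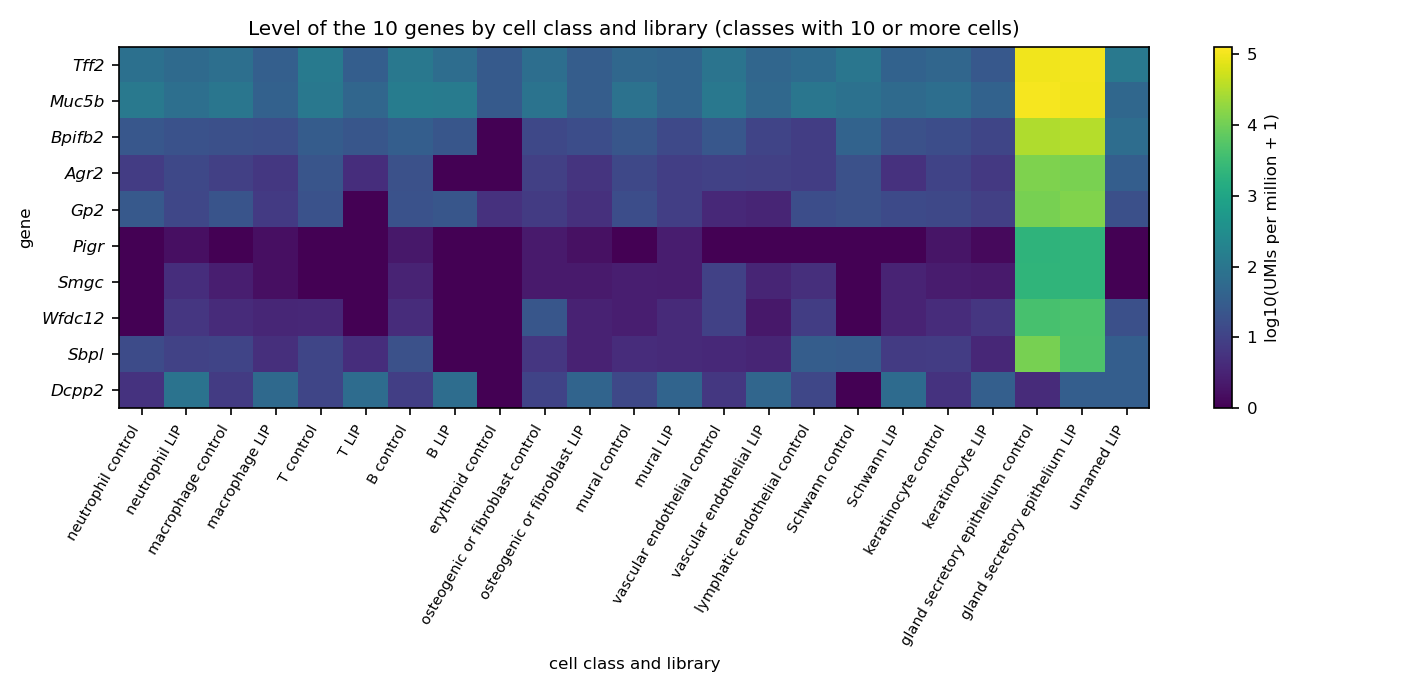
Level of each gene (rows) in each cell class and library with 10 or more cells (columns), as log10 of CPM plus 1. Of the 10 genes, 9 are brightest in the 2 columns of the gland secretory epithelium, while Dcpp2 is low there and spread over the LIP columns at 34.6 to 85.1 CPM in named classes other than the secretory group.

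Within the group the secreted and membrane proteins fell into steady and variable members. Bpifb2, a secreted protein of the BPI-fold family, was the steadiest, with 25052, 31289 and 38841 CPM in the lowest, median and highest control cell and 28208, 32882 and 39521 in LIP cells. Its coefficient of variation over all 27 cells was 13.3%, against 2.93% from counting alone. Muc5b ran from 31983 over a median of 102435 to 163065 CPM in control cells and from 79189 over 109455 to 132979 in LIP cells. Tff2 ran from 19926 over 88786 to 143024 in control cells and from 60327 over 105372 to 122392 in LIP cells. One control cell lay below all others for both, and the ranges of the 2 libraries overlapped.

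Gp2, a granule membrane glycoprotein that binds bacterial fimbriae, had 8676, 11115 and 17396 CPM in the lowest, median and highest control cell and 7516, 12341 and 21007 in LIP cells. Agr2, the disulfide isomerase of the endoplasmic reticulum that mucins need for folding, had 1967, 12506 and 20128 in control cells and 5044, 11272 and 16594 in LIP cells. Both were present in every cell of the group, and their ranges overlapped between the libraries. Pigr, the receptor that carries polymeric immunoglobulins across epithelia into secretions, had 401, 1910 and 3075 CPM in control cells and 1590, 2063 and 4176 in LIP cells. Smgc, a salivary secretory protein known from the newborn submandibular gland, had 496, 2105 and 4350 in control cells and 1055, 1696 and 3781 in LIP cells. Both were far below Muc5b in level and yet were found in all 27 cells.

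Wfdc12, a small protein of the whey acidic protein family with a protease-inhibitor fold, and Sbpl, a relative of the spermine-binding protein, varied far more between cells. Wfdc12 had 64.0, 3149 and 14545 CPM in the lowest, median and highest control cell and 52.3, 1356 and 13556 in LIP cells. Its highest LIP cell alone held 703 of 1505 UMIs, 46.7%. Sbpl had 362, 1945 and 69615 CPM in control cells and 206, 2757 and 14644 in LIP cells. The coefficients of variation over the 27 cells were 107% and 175%, against 8.16% and 5.55% from counting alone. Above 10000 CPM there were 4 control cells and 2 LIP cells for Sbpl, and 2 and 2 for Wfdc12, while 7 control cells and 2 LIP cells held Sbpl at under 1000 CPM. Spearman correlations between the levels of the 9 members other than Dcpp2 over the 27 cells, which come from 2 libraries and share their depths, ran from -0.38 to 0.49 over 36 pairs, with a median of -0.04. Taken in each library alone, 16 of the 36 pairs had the same sign in both.

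**Figure D2:**
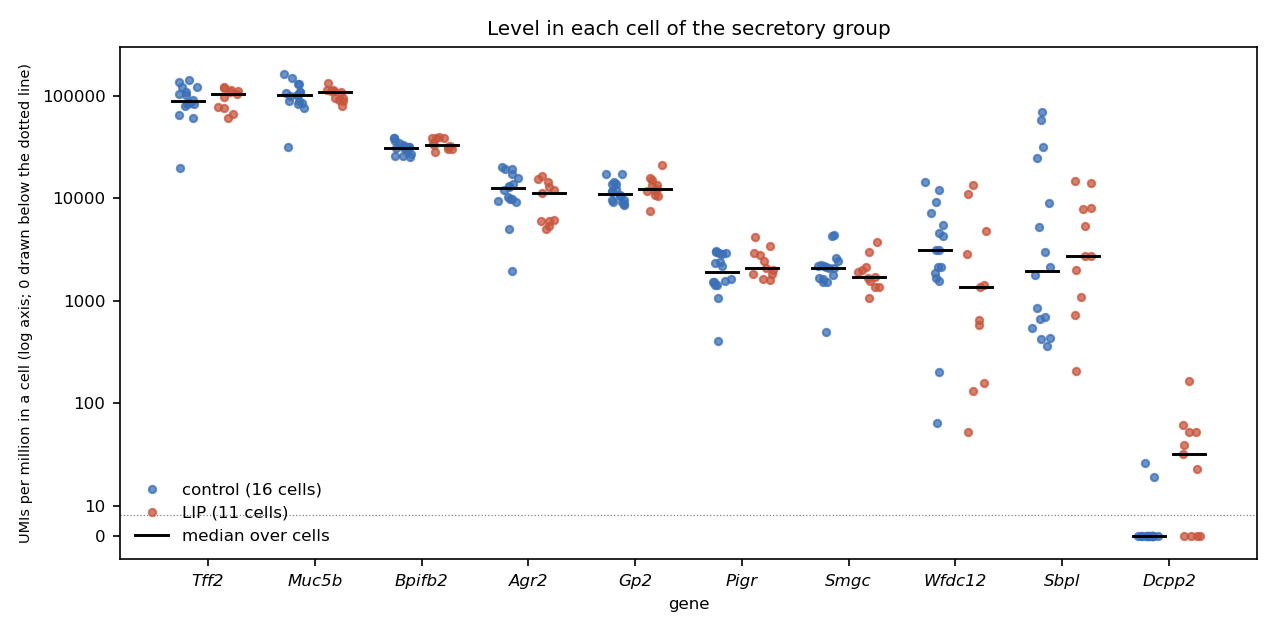
CPM of each gene in each cell of the secretory group (points; log axis, with 0 drawn below the dotted line), for 16 control and 11 LIP cells, with the median as a bar. Bpifb2 stays within 25052 to 39521, Sbpl runs from 206 to 69615 and Wfdc12 from 52.3 to 14545, and Dcpp2 is 0 in most cells.

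Between the conditions the levels in the secretory group were close for 8 of the 9 members with 50 or more UMIs in the group. Their log2 ratios of LIP to control were between -0.13 (Muc5b and Agr2) and 0.23 (Gp2), with 0.13 for Bpifb2, 0.14 for Wfdc12, 0.09 for Pigr, 0.06 for Tff2 and 0.01 for Smgc. For Gp2 the 95% interval was 0.17 to 0.28 and for Muc5b -0.14 to -0.11. These are intervals of counting, and the range over cells was wider in both libraries. Without the cell with the most UMIs of the gene in each library, Muc5b was at -0.03 and Gp2 at 0.10. Over the means of cells the log2 ratio was 0.00 for Muc5b, 0.15 for Gp2, -0.30 for Agr2, 0.27 for Pigr and -0.17 for Smgc. For Wfdc12 the direction rested on 1 LIP cell: without the cell with the most Wfdc12 of each library the log2 ratio was -0.38, and over the means of cells it was -0.46. The 10 genes summed gave a ratio of -0.04 (-0.05 to -0.03). The closeness held for the group from clustering. With all cells holding 5 or more gland markers, without clustering, the group had 53 control and 73 LIP cells. These 8 members were then 2-fold or more lower in LIP, from -1.13 for Gp2 to -1.48 for Muc5b and Agr2. The added cells brought few UMIs of them: over both libraries Tff2 went from 97246 to 97358 and Muc5b from 102528 to 102693. Those cells thus mainly enlarged the totals that CPM divide by. The call used was a fold of 2 with no test, and among all 2195 genes with 50 or more UMIs in the group 1.55% were past it in either direction, with a median log2 ratio of 0.02.

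Of the 9 members with 50 or more UMIs in the group, Sbpl alone was past 2-fold, at 4668 CPM in LIP cells and 11345 in control cells, a log2 ratio of -1.28 (-1.36 to -1.20). Of the 2195 genes with as many UMIs, 0.911% were 2-fold or more lower in LIP. The difference lay in few cells. Of the 7177 control UMIs, 84.9% were in 4 cells, with 2292, 2177, 848 and 773, and these 4 were the only control cells above the highest LIP cell. The median cell was higher in the LIP library, at 2757 against 1945 CPM. Without the cell with the most Sbpl of each library the log2 ratio was -0.98, under 2-fold. With the barcodes over the upper limits added it was -0.93, and over the means of cells -1.27. Dcpp2 had 2 UMIs in the control cells and 11 in the LIP cells of the group, a log2 ratio of 3.36 (1.16 to 6.57) on 13 UMIs in all. Without the upper limits on genes, UMIs and mitochondrial share it turned to -9.86, since the control barcode richest in Dcpp2 then fell in the group.

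The barcodes left out by the filters gave further mucous barcodes, with values the clustering did not use. The 9 members other than Dcpp2 made 10% or more of the UMIs in 7 of the control barcodes left out and in 4 of the LIP barcodes left out. Of these, 4 control barcodes with 65563 to 70028 UMIs and 3 LIP barcodes with 63387 to 67527 UMIs were over the limit of 60000, and together they held 25.8% and 37.4% of all UMIs of the 9 genes in their libraries. The filter on depth thus removed barcodes rich in these members in both libraries. They were picked by that share, so levels of the abundant members near those of the kept cells follow in part from the choice. Aqp5, which was not used to pick them, had 73 to 113 UMIs in the 4 control barcodes and 67 to 82 in the 3 LIP barcodes. In the 4 control barcodes Tff2 was at 67512 to 120680 CPM, Muc5b at 92120 to 118207 and Bpifb2 at 26232 to 33342, all within the range of the kept cells. In the 3 LIP barcodes Muc5b was at 104249 to 118545 and Bpifb2 at 32920 to 36569, again within that range, and Tff2 at 106424 to 139745, with 2 of 3 within it. Sbpl again varied, from 273 to 25441 CPM in the control barcodes and from 31.2 to 12943 in the LIP barcodes, and Wfdc12 from 275 to 20335 and from 905 to 6768. Dcpp2 had 0 UMIs in the 4 control barcodes and 3 in the LIP barcodes.

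Dcpp2, a secreted protein of demilune and parotid cells, did not mark the secretory group. It had 1 UMI in each of 2 of the 16 control cells, and 0 to 3 UMIs in the LIP cells, 7 of 11 of which held any. Of its 26994 UMIs in the control library, 99.2% were in 1 barcode, and of its 122922 in the LIP library, 94.2% were in 1 barcode. Both were left out for their UMI count. The plot of Dcpp2 against Tff2 and Muc5b shows them apart from all other barcodes.

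The LIP barcode held 473599 UMIs, of which Dcpp1, Dcpp2 and Dcpp3 together made 87.5%, with 142411, 115809 and 156260 UMIs. It also held 8141 UMIs of Wfdc18, 4352 of Bpifa2 and 3101 of Dmbt1, secreted proteins of salivary glands, and 4 of Tff2 and 2 of Muc5b. Its 229 UMIs of Wfdc12 and 139 of Pigr were the most of any other member. This Dcpp-rich barcode thus held almost none of the most abundant mucous genes. The control barcode held 175034 UMIs, of which the 3 Dcpp genes made 55.1%, and it held mucous genes too, with 7379 UMIs of Muc5b, 4926 of Tff2, 1922 of Bpifb2 and 521 of Sbpl. Whether it is 1 cell or several caught together was not tested. Dcpp2 was 27.9% of the 3 Dcpp genes in the LIP barcode and 27.8% in the control barcode.

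Some barcodes with fewer than 200 genes held 100 or more Dcpp2 UMIs. In the LIP library 10 such barcodes had 265 to 1366 Dcpp2 UMIs each, 6453 in all, at 57 to 182 genes. The 3 Dcpp genes made 91.3% of their UMIs, which follows in part from picking these barcodes by Dcpp2. Dcpp2 was 28.4% of the 3 genes there (27.8% to 29.0%), the proportion of the large barcode, while Tff2 had 1 UMI and Muc5b 0. Their barcode sequences differed from that of the large barcode at 9 to 14 bases. In the control library 1 barcode of this kind held 116 Dcpp2 UMIs among 618 and differed from the large barcode at 1 base.

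**Figure D3:**
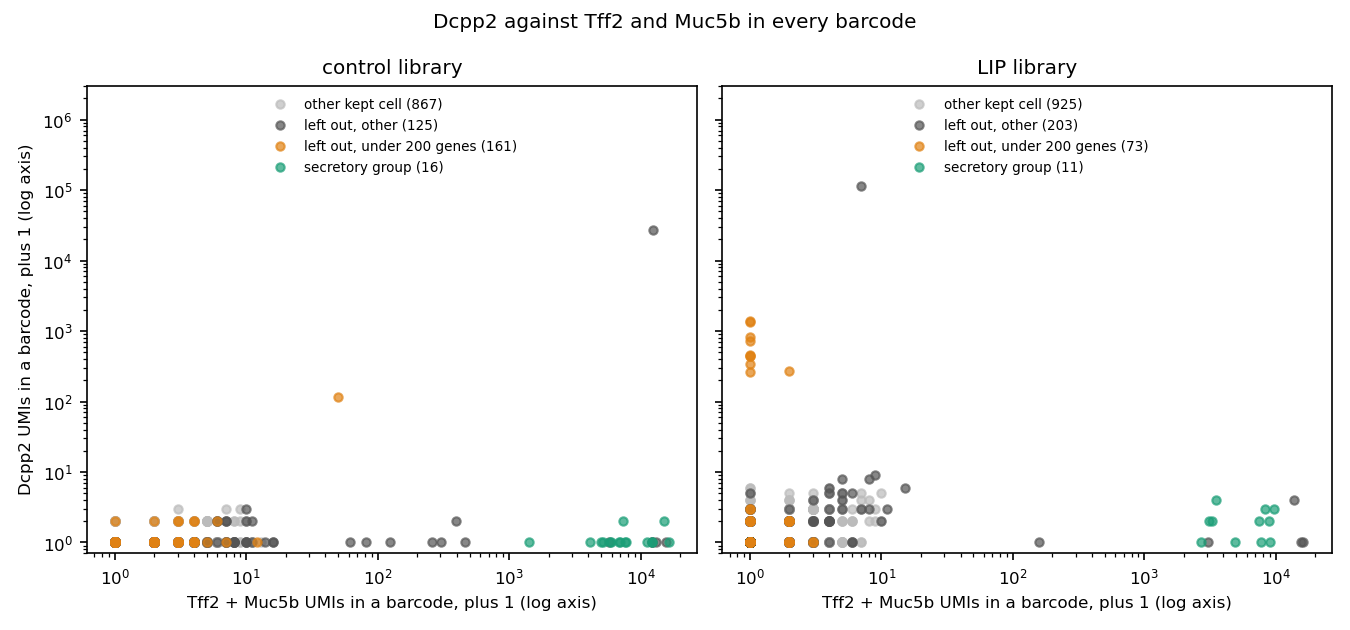
Dcpp2 UMIs against the summed Tff2 and Muc5b UMIs of every barcode, each plus 1 on log axes, for the control library (left) and the LIP library (right). The secretory group lies at high Tff2 and Muc5b with 0 to 3 Dcpp2 UMIs, the LIP barcode with 115809 Dcpp2 UMIs lies at low Tff2 and Muc5b, and the control barcode with 26782 is high for both.

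In the cells outside the secretory group the 9 other members were found at low counts nearly everywhere. In the control library they had 2513 UMIs in 867 cells, a mean of 2.90 and a median of 2 per cell, and in the LIP library 1243 UMIs in 925 cells, a mean of 1.34 and a median of 1. That is 197 CPM in the control library (189 to 205) and 122 in the LIP library (115 to 129), against 282595 and 275066 in the secretory group. At least 1 UMI was found in 85.7% of the control cells and 62.4% of the LIP cells outside the group, at median depths of 10417 and 5482 UMIs, and after each cell was thinned to 1000 UMIs in 20.7% and 17.3%, with 21 and 68 shallower cells left out. Of cells with 10 or more UMIs there were 18 in the control library and 3 in the LIP library.

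The low counts were present in classes that do not secrete mucus. Among named control classes the level ran from 57.8 CPM in erythroid cells to 339 in B cells, and among named LIP classes with 10 or more cells from 91.3 in osteogenic cells or fibroblasts to 238 in B cells. The 47 unnamed LIP cells, at a median of 793 UMIs, held 20 UMIs, or 331 CPM. Keratinocytes, the epithelium of the gingiva, had 164 and 98.8 CPM and so were below every other of these classes but the lowest in each library. As deep cells they held the most UMIs per cell, 1213 UMIs in 264 control cells and 294 in 123 LIP cells. The low rank was by CPM. Thinned to 1000 UMIs, 19.5% of LIP keratinocytes held any of the 9 genes, and only neutrophils (22.5%) and B cells (21.1%) were above them. With 2000 UMIs it was 14.4% of LIP keratinocytes. Control keratinocytes, thinned to 1000 UMIs, were at 15.5%, above only erythroid (8.33%) and mural cells (13.0%). In neutrophils Tff2 was found in 37.3% of 51 control cells and 23.5% of 324 LIP cells, and Muc5b in 64.7% and 29.0%, at median depths of 6494 and 3858 UMIs. Neutrophils are not mucus-secreting cells, so a share at or below theirs in another class was not read as expression. For Tff2 most named classes were above that share. In the control library only erythroid cells (33.3%) and Schwann cells (35.1%) were below it. Among named LIP classes with 10 or more cells only B cells (10.5%) and Schwann cells (15.2%) were below it, and macrophages (46.8%) were the highest. Tff2 was found in 71.6% of control keratinocytes and 62.75% of control T cells, at median depths of 28640 and 6472 UMIs. Muc5b was found in 78.4% and 47.1% of these cells, above and below its share in control neutrophils. Such a share also rises with depth. With cells thinned to 1000 UMIs, Tff2 was in 6.20% of control keratinocytes, 7.84% of control T cells and 11.8% of control neutrophils. Muc5b was then in 5.81%, 9.80% and 11.8%. With 2000 UMIs per cell Tff2 was in 8.87% of control keratinocytes, 20.4% of control T cells and 14.0% of control neutrophils. Expression in the classes above the share of neutrophils, and the source of these UMIs, was not tested.

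The order of the most abundant members outside the group was close to that inside it, with Muc5b and Tff2 first. Of the UMIs of the 9 genes in control cells outside the group, Muc5b made 41.0%, Tff2 30.5%, Bpifb2 8.75% and Gp2 6.37%, against 38.4%, 34.9%, 11.1% and 4.08% inside it. In the LIP library these were 38.4%, 30.2%, 11.6% and 5.95% outside, against 36.2%, 37.3%, 12.5% and 4.90% inside. Per 100 UMIs in the secretory group there were 1.23 of Tff2 in the other control cells (1.14 to 1.32), and in the LIP library 1.08 of Tff2 (0.970 to 1.19) and 1.41 of Muc5b (1.29 to 1.54). Over the 9 genes the value ran from 0.768 (Pigr) to 2.70 (Wfdc12) in the control library and from 0.672 (Pigr) to 2.71 (Sbpl) in the LIP library. The control value of Wfdc12 was 1.61 without 1 cell that held 28 UMIs of it, and Gp2, at 2.20, was then the highest. These ratios differed between genes by more than counting error in places, as for Tff2 against Gp2 (1.87 to 2.57) in the control library. The barcodes left out held 31602 Tff2 UMIs and 41630 Muc5b UMIs of the control library, and their part in the counts of other cells was not tested.

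**Figure D4:**
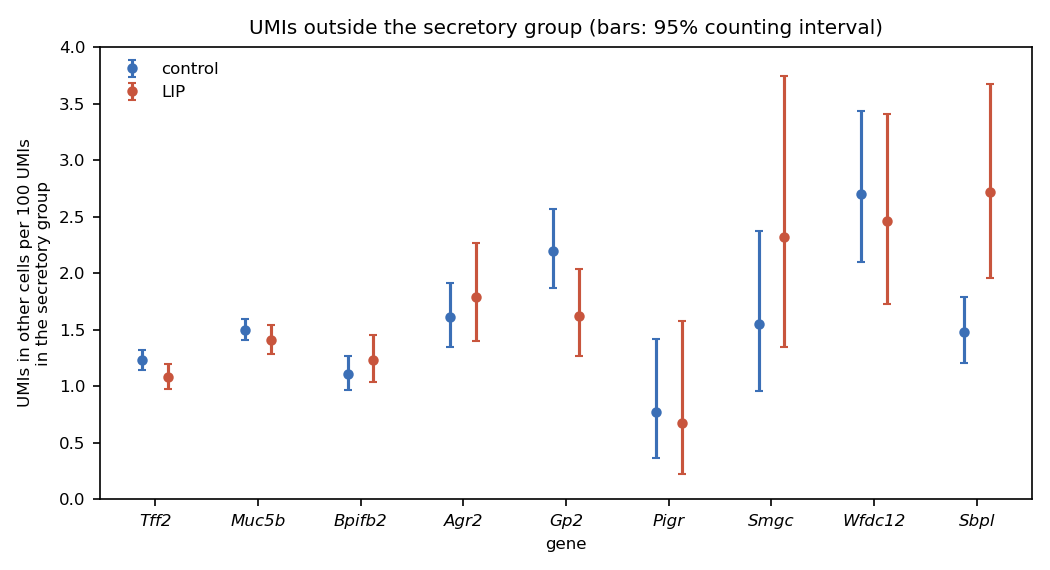
UMIs in all other kept cells per 100 UMIs in the secretory group, for 9 genes in the control and LIP libraries, with 95% counting intervals as bars. All values lie between 0.672 and 2.71, and the control value of Wfdc12 includes 28 UMIs of 1 cell.

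One cell stood apart. A control cell of the osteogenic or fibroblast class with 11134 UMIs held 28 UMIs of Wfdc12 and 0 of the other members, while the next highest cell outside the group held 5. It alone gave 28 of the 69 Wfdc12 UMIs outside the group in the control library. Wfdc12 also had 25 UMIs in control keratinocytes and 16 in LIP keratinocytes, 3.37 and 5.38 CPM, with up to 5 in 1 LIP cell.

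Dcpp2 outside the group followed another pattern. It had 78 UMIs in 867 control cells, 6.11 CPM (4.83 to 7.62), and 511 in 925 LIP cells, a level with an interval of 45.8 to 54.5 CPM, so that it was higher in the LIP library, while the sum of the 9 others was lower there. Smgc, at 1.64 and 1.66 CPM, was the one of these 9 that was not lower. Wfdc12 was lower, at 5.40 and 3.62 CPM, but its direction rested on the 1 control cell with 28 of its 69 UMIs. Every named LIP class with 10 or more cells held Dcpp2, from 34.6 CPM in keratinocytes to 85.1 in neutrophils, where 114 of 324 cells (35.2%) had a UMI. In control classes it was between 0 and 11.9 CPM. In the secretory group it was at 3.16 and 32.4 CPM, no higher than in the other cells of the same library. Dcpp2 was 27.7% of the 3 Dcpp genes in the other LIP cells (25.6% to 29.8%) and 26.9% in the other control cells (21.9% to 32.4%), intervals that hold the proportions of the large barcodes. In the control secretory group it was 2 of 29 Dcpp UMIs, 6.90% (0.846% to 22.8%), an interval that does not hold them, with 21 of Dcpp3. In the LIP secretory group it was 21.6% (11.3% to 35.3%), on 11 Dcpp2 UMIs, an interval that does hold them. The proportion was nearly the same in the large control and LIP barcodes, 27.8% and 27.9%. A match with it therefore does not tell sources of these UMIs apart. No kept cell held more than 5 UMIs of Dcpp2, so no Dcpp-rich cell was left among the kept cells, and the higher level in the LIP library goes with the larger Dcpp-rich barcode of that library, whose part in it was not tested.

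The wider secretory programme was described with 10 gene lists, chosen with earlier results of these data known. A gene was called where it was at least 2-fold higher or lower in the secretory group than in all other kept cells in both libraries, with 10 CPM added and 10 or more UMIs in the group required. Over all 6913 genes with so many UMIs, 11.2% were called higher and 6.47% lower, at a median log2 difference of -0.09. The clusters were made from these same cells, so the counts describe the group and test nothing. A gene with few UMIs in the group fails the minimum however high it is elsewhere, so the counts of lower genes leave such genes out. The plot of the gene lists gives every gene counted.

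Mucin O-glycosylation enzymes were called higher in 10 of 12 genes and lower in 0, with a median log2 difference of 3.17. Galnt7 and Galnt6, which start O-glycans, had log2 differences of 4.56 and 5.51 in the control library and 4.72 and 4.95 in the LIP library. Chst4, a carbohydrate sulfotransferase, was at 526 CPM in the control group and 498 in the LIP group, against 0.391 and 1.27 in other cells. C1galt1, which extends the first sugar, was at 318 and 356, with log2 differences of 2.89 and 3.27. Galnt1 and C1galt1c1 were not called, with log2 differences of 0.28 and 1.36 in the control library and -0.13 and 0.89 in the LIP library.

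Genes of folding and export in the endoplasmic reticulum were called higher in 13 of 15 and lower in 0, with a median of 1.85. The translocation genes Sec61b and Ssr4 had log2 differences of 2.19 and 2.43 in the control library and 1.86 and 2.36 in the LIP library. The chaperone Hspa5 had 1.36 and 1.04, and Dnajc3, its partner, 2.88 and 2.87. Of the acinar water and ion transport genes 11 of 12 were called higher and 0 lower, with a median of 2.45. Aqp5 was at 1634 CPM in the control group and 1496 in the LIP group, against 1.64 and 1.37 in other cells, and the paracellular channel protein Cldn10 at 1306 and 1325 against 3.68 and 2.84. The chloride loader Slc12a2 had log2 differences of 3.40 and 3.85, and the potassium channel Kcnn4 4.28 and 3.63. Car2, carbonic anhydrase, was not called, at 1.20 and -0.11.

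Of the gland identity regulators 8 of 11 were called higher and 0 lower, with a median of 2.78. Xbp1, the transcription factor of the unfolded protein response, was at 549 and 515 CPM in the control and LIP group, against 101 and 115 in other cells, and Creb3l1, another factor of secretory capacity, at 477 and 480 against 18.4 and 40.8. Spdef, a factor of goblet and mucous cells, ranked after these and Ehf, at 411 and 289 against 0.313 and 0.196, and Ehf was at 495 and 524 against 80.6 and 46.0. Sox10 had 0 UMIs in the group. Of the duct and simple epithelium list 4 of 7 were called higher and 0 lower, with a median of 3.40. These were Epcam, at log2 differences of 4.06 and 4.52, the simple-epithelium keratins Krt18, at 4.55 and 5.67, and Krt8, at 2.91 and 3.88, and the tight-junction gene Cldn7, at 3.56 and 3.33. Krt19, Krt7 and Kit were counted but not called. Their log2 differences were 2.31, 1.31 and 1.28 in the control library and 0.49, 0.98 and -0.04 in the LIP library. The ionocyte and duct genes Cftr and Foxi1 were at 0 UMIs, Ascl3 at 1 and Klk1 at 9, all under the minimum.

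Of other mucous products 3 of 5 were called higher, with a median of 1.86. Fcgbp, a mucus-linking protein, was at 117 and 115 CPM, against 3.68 and 1.76 in other cells. The membrane mucins Muc4 and Muc20 had log2 differences of 2.95 and 1.75 in the control library and 2.72 and 1.97 in the LIP library. Tff1 was not called, at 0.73 and 0.90, and Tff3, with 2 UMIs, was under the minimum. Of serous and demilune products 3 of 7 were called higher and 1 lower. Wfdc2 was at 5317 and 5110 CPM, against 91.6 and 117 in other cells, and Azgp1 at 182 and 236 against 0.157 and 0. Dmbt1, a scavenger-receptor protein of saliva, was the third called higher, at 53.7 and 14.7 against 0.391 and 1.57. Its call rests on 34 control and 5 LIP UMIs in 8 cells, and its LIP log2 difference of 1.10 was just past 2-fold. Slpi, a protease inhibitor, was lower, at 28.5 and 17.7 against 269 and 1264. Ltf, lactoferrin, which neutrophils also make, was left out by the minimum, with 3 UMIs in the group and log2 differences of -4.45 and -5.75. Wfdc18 was not called, since its log2 difference was 0.03 in the control library and 3.14 in the LIP library. Lpo, Car6, Pip and Lyz1 had 0 UMIs in the group, Bpifa2 had 1 and Amy1 had 2, while the list's Wfdc2, Azgp1 and Dmbt1 were higher as given.

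Markers of the cells that accompany gland acini were low in the group. Of the myoepithelium list 3 genes were counted and all 3 were lower, Krt14 and Krt5, which keratinocytes also express, and Acta2. Acta2, a leading gene of mural cells among the other cells, was at 26.9 and 17.7 CPM in the group against 879 and 966 in other cells. The defining genes Myh11, Cnn1 and Oxtr had 3, 1 and 0 UMIs. Of the list of the IgA chain and plasma cells 2 genes were counted and both were lower, Igkc and Sdc1. Igkc, a leading gene of a B cell cluster among the other cells, was at 68.0 and 0 CPM against 5885 and 81.3. Sdc1 was at 9.48 and 11.8 against 179 and 152. In the other cells Jchain was at 406 and 0 CPM and Mzb1 at 117 and 5.48 in the control and LIP library. Sdc1 did not share this drop, so its level there was not read as a plasma cell sign. Igha, the heavy chain of the antibody Pigr carries, had 0 UMIs in the group, as had Jchain, Mzb1 and Tnfrsf17. Of 18 relatives of the WFDC and BPI-fold families 17 were under the minimum, and the one counted, Bpifb6, was at 75.9 and 144 CPM against 0.235 and 0.196. Among those under it, Wfdc21 and Wfdc17 had 1 UMI each in the group and log2 differences of -4.65 and -2.53 in the control library and -5.62 and -5.61 in the LIP library.

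**Figure D5:**
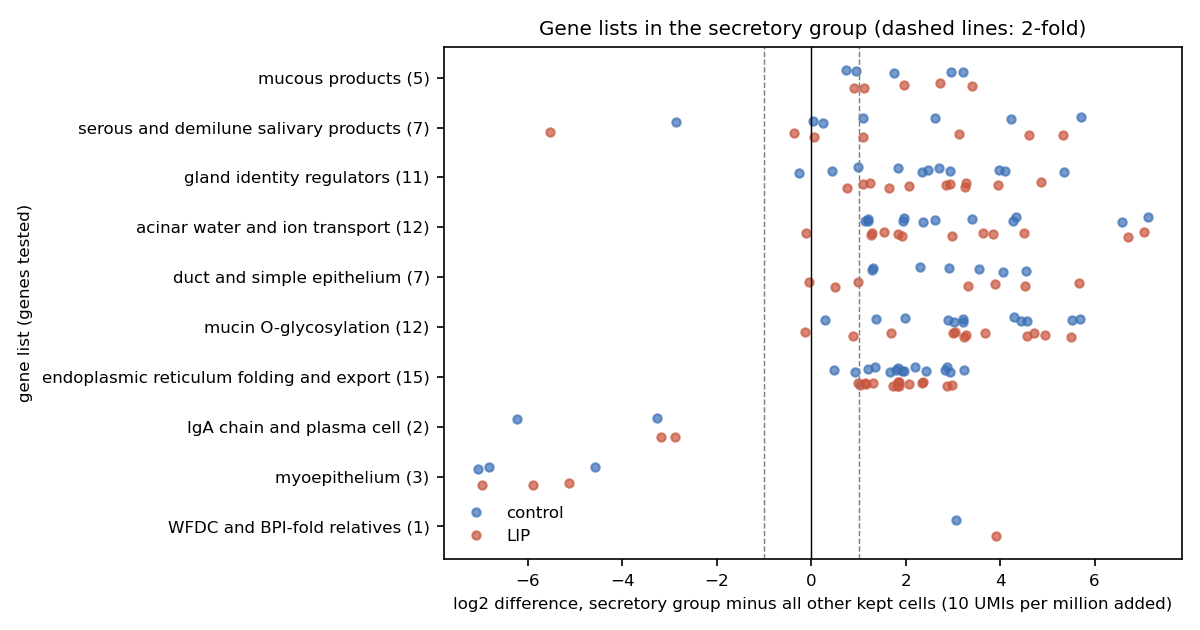
Log2 difference between the secretory group and all other kept cells (x axis, 10 CPM added) for each gene counted in 10 lists (y axis, number of genes in brackets), in the control and LIP libraries, with dashed lines at 2-fold. Glycosylation, endoplasmic reticulum, transport and regulator genes lie mostly to the right, and the genes counted from the myoepithelium and plasma cell lists to the left.

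Among 13113 genes with 50 or more UMIs that are no members, the 10 with the profile most like the mean of the members over 20 columns of class and library included Prss2, BC030870, Crisp1, Liph, Prss32, Azgp1, Cldn2, Gcnt3 and Muc4, with Pearson correlations of 0.9965 to 0.9978. The columns share their libraries, and the value rests on the secretory group against the rest. The claudin Cldn2 had 500 UMIs in the group of 511 in all kept cells (97.8%). The zinc alpha-2-glycoprotein Azgp1, with 195 of 197, and the glycosyltransferase Gcnt3, with 77 of 79, are also in the lists above, as is Muc4 with 62 of 63. Crisp1 and BC030870 were found in the group alone, with 63 and 99 UMIs. By the same measure the members had correlations of 0.988 to 0.997 with their own mean, except Dcpp2, at -0.15. Members chosen because they marked the group were bound to be close to that mean, so these values test nothing.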

How the data were processed

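Single-cell suspensions of 2 libraries were sequenced by the authors with 10x Genomics 3′ chemistry and aligned to mm10 with Cell Ranger, 3.1.0 per the file headers. The deposited values are raw UMI counts per gene and barcode, not normalized. Groups were taken from the labels. The 10 genes and all lists were chosen with earlier results of these data known.

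Barcodes were filtered as in the report. Seurat 5.3.0 (R 4.3.3) served to integrate the libraries and to cluster the cells (2000 variable features without the members, 30 dimensions, resolution 0.1, sub-clusters at 0.2). Classes were named from marker lists, needing 3 markers. Doublets were scored with Scrublet, which marked 5 barcodes, kept in the main setting. Raw counts were summed per class and library with Python 3.11.15 and scipy 1.17.1. Intervals are exact at 95% and cover counting error only. A floor of 3 counts for a count of 0 was set apart from these intervals. No p-value was computed with 1 library per condition. The interval of a ratio, the 2-fold call and the interval of a share were tested on simulated counts without variation between cells. Clustering and the naming of classes were not tested in this way. Named genes were the 10 members, up to 4 genes per list with the most UMIs in the group, and the 10 most alike. Others were named after their values were seen: Galnt1, C1galt1c1, Car2, Sox10, Krt19, Krt7, Kit, Cftr, Foxi1, Ascl3, Klk1, Tff3, Lpo, Car6, Pip, Lyz1, Bpifa2, Amy1, Dmbt1, Slpi, Ltf, Wfdc17, Wfdc21, Dcpp1, Sbp, Reg3g, Bpifb1, Cnn1, Oxtr, Igha, Jchain, Mzb1 and Tnfrsf17. One gene that these rules name is not reported here.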

Additional observations from a re-analysis of the deposited data

Results flagged for a closer look

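The following signals lie in barcodes that the filters leave out, and the comparisons between classes do not use them. In the LIP library 1 barcode held 115809 Dcpp2 UMIs, and 10 barcodes under 200 genes, each with 100 or more, held 6453. In the control library 1 barcode held 26782, and 1 barcode under 200 genes held 116. Left-out barcodes in which the 9 other members made 10% or more of the UMIs held 80767 UMIs of these genes in the control library and 63226 in the LIP library.

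A control barcode left out for 11.2% mitochondrial UMIs, with 28179 UMIs, was led by Reg3g (4789 UMIs) and held 645 UMIs of Bpifb1 and 150 of Muc5ac. It held 275 UMIs of Muc5b, 189 of Tff2, 93 of Pigr and 53 of Agr2, and 0 of Bpifb2, Gp2, Smgc, Wfdc12 and Sbpl.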

How the results depend on the processing

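The same 27 cells formed the secretory group with the members kept among the variable features, at a resolution of 0.3, with 15 dimensions, at a sub-cluster resolution of 0.4 and without marked doublets. At a mitochondrial limit of 5%, 3 of the 27 cells were left, no cluster took the name, and no value could be given. Without upper limits the group held 24 control and 15 LIP cells, the share of the members' UMIs in it was 98.7% in the control and 56.9% in the LIP library, the members outside it were at 287 and 9051 CPM, the log2 ratio of the sum was 0.09, and that of Dcpp2 reversed to -9.86, as the large Dcpp barcodes were then counted. A group of all cells with 5 or more gland markers, without clustering, took in 6.00% of control and 7.80% of LIP cells. The shares were 98.7% and 98.4%, with 183 CPM outside in the LIP library. The log2 ratio of the sum was then -1.39, the groups holding 53 and 73 cells. Their 272644 UMIs of the members were close to the 272192 of the main groups, so the added cells held few of them. With means over cells the ratio of the sum was -0.02 and the level outside 314 and 279 CPM. Without the cell with the most UMIs in each library the ratio was 0.01 and the shares were 98.4% and 97.8%. Without Dcpp2, an alternative added after the data were seen, the LIP share was 98.7% and the level outside 122. Thinned to 2000 in place of 1000 UMIs, cells with a UMI of the 9 members were 29.8% of control keratinocytes in place of 15.5%, 46% of control neutrophils in place of 27.5% and 32.3% of LIP neutrophils in place of 22.5%, while LIP keratinocytes went from 19.5% to 14.4%. Of the listed genes, 53 were called higher, 58 with 1 added in place of 10 CPM and 53 without a minimum. The ratio of Dcpp2 in the group rests on few UMIs, 2 and 11, although the cells of the group were among the deepest.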
